A study of Mesocricetus auratus with 14 samples.

Results

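Hepatocyte lineage transcription factors are the DNA-binding proteins that turn on and maintain the gene programme of the main parenchymal cell of the liver. They were taken here as a list of 9 genes given by symbol: Hnf4a, Cebpa, Cebpb, Foxa1, Foxa2, Foxa3, Onecut1, Prox1 and Creb3l3. Of these 9, 8 were matched by symbol among the 10023 genes of the authors' table of symbols and all 8 passed the expression filter. Cebpb found no match by symbol and was not analysed here. The study measured liver RNA of golden hamsters (Mesocricetus auratus) by RNA sequencing. High-fat diet (HFD) is the label of every sample, with 7 samples labelled control and 7 labelled as given DC371739, which carries a code name only. The sources give no strain, sex, age, dose, route or duration. Nothing in the labels states that samples are separate animals, and p-values therefore measure the spread between these samples, which may be technical.

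These factors work as a network in which each binds the regulatory regions of the others and of hepatocyte genes. FOXA proteins are pioneer factors that open chromatin, HNF4A is the nuclear receptor that sustains the adult hepatocyte programme, C/EBP alpha drives metabolic genes and restrains growth, and ONECUT1 and PROX1 are homeodomain proteins that act from liver development onward. CREB3L3 is held in the membrane of the endoplasmic reticulum and is released by proteolysis to switch on genes of lipid and fasting metabolism.

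The tissue label was borne out by its markers. The summed level of 9 hepatocyte markers (Alb, Ttr, Apoa1, Apob, Serpina1, Cps1, Hpx, Asgr1 and Asgr2) was 111446 to 147246 CPM in control and 114487 to 133735 CPM in DC371739 libraries, and no marker was at 0. Most of this sum was Alb, which averaged 106054 CPM in control and 99251 CPM in DC371739 libraries. CPM here is the count per 1000000 counts of the TMM-scaled library total. Libraries held 13672589 to 23948628 counts. The 3 deepest, which were DC371739 replicate 7 and replicates 6 and 7 of the control, held at least 22152239. Their mitochondrial share of counts was 12.6% to 14.4%, and that of the other 11 was 7.23% to 9.33%. Since the deeper libraries stood apart, the treatment difference of each factor is given from 3 fits: all 14 libraries, the same with a term for library class (deeper or shallower), and the 11 shallower libraries alone (5 control and 6 DC371739). The last 2 fits reuse libraries of the first and are no independent support.

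Over all 14 libraries, none of the 8 factors passed an adjusted p of 0.05 in edgeR's quasi-likelihood test, in which 1.85% of all 12166 genes tested passed (1.24% higher and 0.608% lower with DC371739). The CPM ranges of the groups overlapped for all 8, while 0.699% of all genes had ranges that did not. At an unadjusted p under 0.05 there were 3 of the 8 (Hnf4a, Cebpa and Foxa1), against 20.4% of all genes, while DESeq2 called 2 (Hnf4a and Cebpa, 6.29% of all genes) and limma-voom with sample quality weights 5 (Hnf4a, Prox1, Cebpa, Foxa1 and Foxa3, 22.5%). With the class term, Hnf4a was higher and Foxa3 lower with DC371739, 2 of 8 against 12.3% of all genes (5.62% higher and 6.70% lower). When the deeper libraries were left out, Hnf4a and Prox1 rose and Cebpa and Foxa3 fell, 4 of 8 against 21.5% of 12249 genes (11% higher and 10.5% lower). The number of members is small, and no test of the list against other genes was made.

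**Figure D1:**
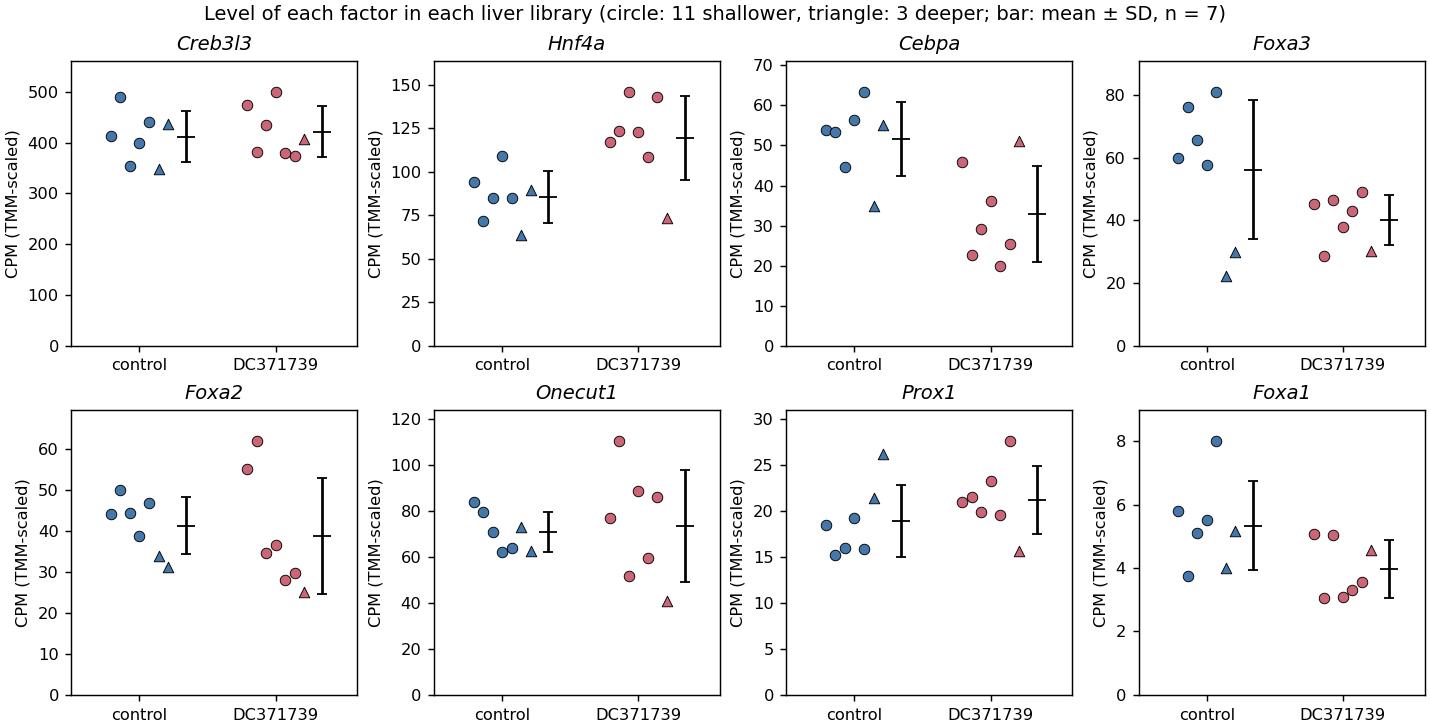
Level of each factor (vertical axes, TMM-scaled CPM, starting at 0) in 7 control and 7 DC371739 libraries; circles are the 11 shallower libraries, triangles the 3 deeper ones, bars the mean ± SD. Hnf4a circles lie higher and Cebpa and Foxa3 circles lower with DC371739, while the triangles of both groups lie close together for Foxa3.

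Levels between genes were compared per length, as the authors' FPKM (counts scaled by exon length and by a constant of each library). Creb3l3 was by far the most abundant, at 278 ± 33.0 FPKM in control and 285 ± 32.6 FPKM in DC371739 libraries (SD, n = 7 each), above 97.2% of the genes of the authors' table in the control mean. Hnf4a followed in control at 80.9 ± 13.6 FPKM, then Cebpa at 61.2 ± 10.6, Foxa3 at 38.0 ± 14.8, Foxa2 at 24.5 ± 3.96, Onecut1 at 15.5 ± 1.88, Prox1 at 11.2 ± 2.37 and Foxa1 at 4.997 ± 1.29 FPKM. The control ranges of Creb3l3 and Hnf4a, of Foxa2 and Onecut1, and of Prox1 and Foxa1 did not overlap. Those of the other neighbours in this order (Hnf4a and Cebpa, Cebpa and Foxa3, Foxa3 and Foxa2, Onecut1 and Prox1) did overlap. Within libraries, Hnf4a nonetheless lay above Cebpa in all 14, Cebpa above Foxa3 in 12 and Foxa3 above Foxa2 in 11. FPKM depends on the exons that the annotation holds: summed exon lengths ran from 1095 bases for Cebpa to 5941 bases for Onecut1, and its part in this order was not tested.

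**Figure D2:**
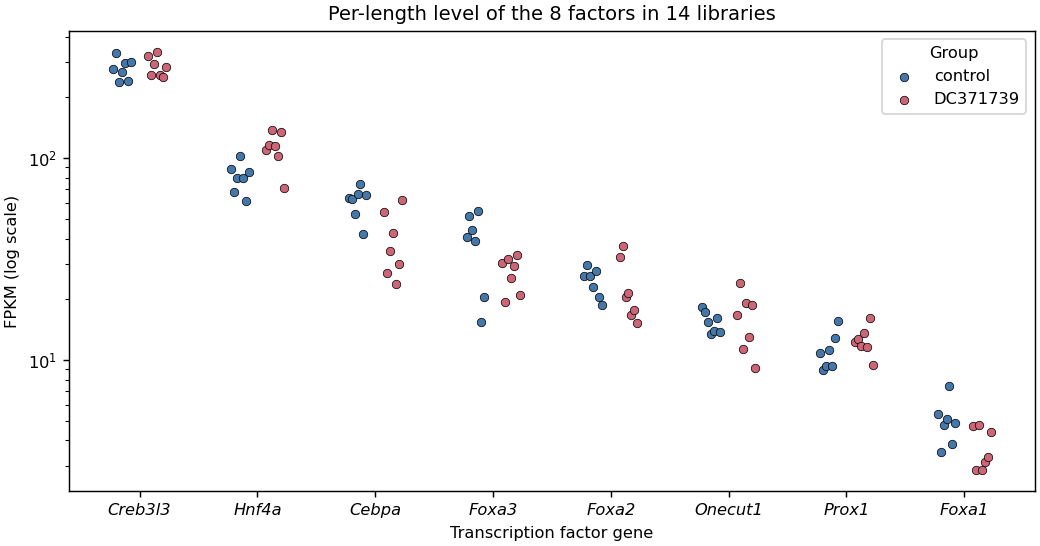
FPKM of the 8 factors (vertical axis, log scale) in each control and DC371739 library, ordered by the control mean. Creb3l3 stands above all others and Foxa1 lowest, at 2.86 to 7.47 FPKM over the 14 libraries.

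HNF4A (ENSMAUG00000007993) is the nuclear receptor of the group, and its gene spans 2766821 to 2791246 of scaffold KB708307.1 on the minus strand, in the coordinates of the count table, for which no build is stated. Hnf4a had a lowest, median and highest level of 63.9, 85.2 and 109 CPM in control libraries. In DC371739 libraries these were 73.6, 123 and 146 CPM. Of the 7 treated libraries, 6 lay above the control median and 5 above the highest control. The exception was the deeper DC371739 replicate 7, which held the lowest treated value, within the control range. The log2 fold change over all 14 libraries was 0.48 (SE 0.14, adjusted p = 0.0795 by edgeR). It was 0.40 (SE 0.12, adjusted p = 0.0359) with the class term and 0.52 (SE 0.11, adjusted p = 0.00504) over the shallower libraries. In those, control values were 71.6 to 109 CPM and treated values 108 to 146 CPM, so that only DC371739 replicate 5 fell below the highest control, replicate 4. The call over the 11 held whichever of them was left out, with log2 fold changes of 0.45 to 0.60. With the class term, leaving out any of control replicates 1, 2, 3 and 5 and DC371739 replicates 2, 3 and 6 lost the call (adjusted p up to 0.0849), and over all 14 libraries the gene passed once DC371739 replicate 7 was left out (adjusted p = 0.0109).

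C/EBP alpha is a basic leucine zipper factor, encoded by Cebpa (ENSMAUG00000003660, KB708244.1, 3380599 to 3381708, minus strand). Cebpa stood at 35.0, 53.8 and 63.4 CPM (lowest, median and highest) in control libraries. In DC371739 libraries it stood at 20.01, 29.2 and 51.1 CPM. All 7 treated libraries lay below the control median, and 4 lay below the lowest control, replicate 6. DC371739 replicates 2, 3, 5 and 6 held 20.01 to 29.2 CPM and replicates 1, 4 and 7 held 36.1 to 51.1 CPM. Cebpa had a log2 fold change of -0.65 (SE 0.20, adjusted p = 0.0839) over all libraries, -0.64 (SE 0.21, adjusted p = 0.0560) with the class term and -0.86 (SE 0.19, adjusted p = 0.00930) over the shallower libraries. Among the shallower libraries only DC371739 replicate 1, at 45.8 CPM, reached the control range of 44.7 to 63.4 CPM. The call over the 11 held whichever library was left out, with an adjusted p of up to 0.0267. Over all 14 libraries Cebpa passed once DC371739 replicate 7 was left out (adjusted p = 0.0178), and with the class term once DC371739 replicate 1 or 7 or control replicate 6 was (down to 0.0105). In the authors' deposited table, the log2 fold change was 0.48 for Hnf4a (adjusted p = 0.0742) and -0.65 for Cebpa (adjusted p = 0.0894).

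Hnf4a and Cebpa thus had fold changes of opposite sign, and their ratio within a library does not depend on library scaling. The ratio was chosen after the values of both genes were seen and is a description. The FPKM of Hnf4a was 1.07 to 1.55 times that of Cebpa in the 7 control libraries, with a median of 1.40. In DC371739 libraries it was 1.15 to 4.50 times, with a median of 3.99. In 6 of 7 treated libraries the ratio lay above every control: it was 2.04 and 2.72 in replicates 1 and 4, and 3.99 to 4.50 in replicates 2, 3, 5 and 6. DC371739 replicate 7, at 1.15, lay within the control range. The mean log2 ratio went from 0.40 ± 0.22 to 1.58 ± 0.74 (SD, n = 7 each), a difference of 1.18, which was 1.08 to 1.41 when any 1 library was left out.

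**Figure D3:**
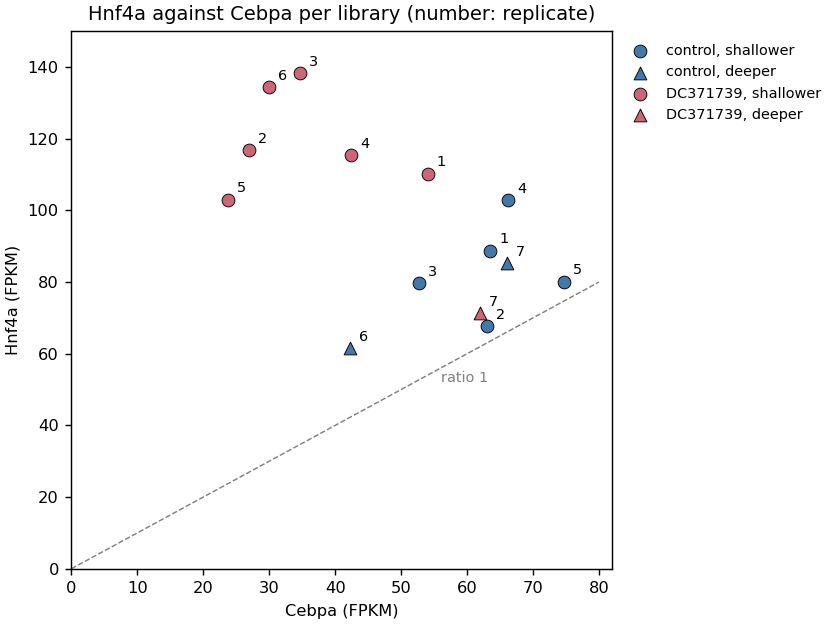
Hnf4a (vertical axis, FPKM) against Cebpa (horizontal axis, FPKM) in each library, with replicate numbers, circles for shallower and triangles for deeper libraries, and a dashed line where both are equal. The 6 shallower DC371739 libraries lie toward the upper left, farther from the line than any control, and DC371739 replicate 7 lies among the controls.

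The FOXA proteins share a forkhead DNA-binding domain. Foxa3 (ENSMAUG00000007869, KB708344.1, 286703 to 293998, minus strand) was the most abundant of the 3 per length in control. Its CPM values in control were 22.4, 60.0 and 81.0 (lowest, median and highest), and 28.7, 42.9 and 49.0 with DC371739. The 5 shallower controls held 57.6 to 81.0 CPM and the deeper control replicates 6 and 7 only 22.4 and 30.0 CPM. All 6 shallower treated libraries, at 28.7 to 49.0 CPM, lay below all 5 shallower controls, as 5.27% of all genes did. For Foxa3 the log2 fold change was -0.49 (SE 0.24, adjusted p = 0.270) over all libraries, -0.52 (SE 0.15, adjusted p = 0.0363) with the class term and -0.70 (SE 0.13, adjusted p = 0.00339) over the shallower libraries. The last call held whichever library was left out (adjusted p up to 0.0120), whereas the call with the class term withstood leaving out DC371739 replicate 7 and each of control replicates 4, 6 and 7, and was lost without each other library (up to 0.0826). Foxa3 shares 134 exonic bases with Rsph6a on the opposite strand, which had 152 to 270 counts a library. The strand setting of the counting is not given, so reads there cannot be told apart.

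Foxa1 (ENSMAUG00000013476, KB708226.1, 5242362 to 5243797, minus strand) was the least abundant, with 49 to 140 counts a library, so its values carry the most counting error of the 8. It stood at 3.74, 5.15 and 8.01 CPM in control libraries (lowest, median and highest). With DC371739 it stood at 3.06, 3.55 and 5.07 CPM, all 7 treated libraries lying below the control median. The log2 fold change was -0.43 (SE 0.18, adjusted p = 0.201), -0.44 (SE 0.18, adjusted p = 0.113) with the class term, and -0.55 (SE 0.20, adjusted p = 0.0634) over the shallower libraries. There it passed when control replicate 2, or either of DC371739 replicates 1 and 3, was left out (adjusted p down to 0.0386). Foxa2 (ENSMAUG00000016457, KB708160.1, 15549039 to 15553234, plus strand) had a log2 fold change of -0.09 (SE 0.19, adjusted p = 0.828), which was -0.18 (adjusted p = 0.487) with the class term and -0.12 (adjusted p = 0.693) over the shallower libraries. With 1 library left out it ran from -0.25 without DC371739 replicate 2 to -0.011 without DC371739 replicate 7. Its control values were 31.3, 44.3 and 50.1 CPM. Its treated values spread further on both sides, at 25.1, 34.6 and 62.1 CPM, with replicates 1 and 2 above every control and replicates 5, 6 and 7 below every control. The coefficient of variation was 16.8% in control and 36.6% in DC371739 libraries; this difference was not tested.

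Foxa1, Foxa2 and Foxa3 together had 67.5 ± 19.1 FPKM in control and 53.9 ± 8.60 FPKM in DC371739 libraries. Foxa3 made up 56.2% to 60.9% of this sum in the 5 shallower controls and 38.9% and 46.5% in control replicates 6 and 7. With DC371739 its share ran from 32.9% in replicate 2 to 61.2% in replicate 6. Foxa2 had the larger share in DC371739 replicates 1 and 2 and control replicate 6, and Foxa3 in the other 11 libraries. The mean log2 ratio of Foxa3 to Foxa2 was 0.52 ± 0.49 in control and 0.29 ± 0.63 with DC371739, a difference of -0.24. It was -0.03 without DC371739 replicate 2 and -0.39 without control replicate 6, and -0.53 over the 11 shallower libraries. The 5 shallower controls had log2 ratios of 0.63 to 0.98 and the deeper control replicates 6 and 7 of -0.41 and 0.13.

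**Figure D4:**
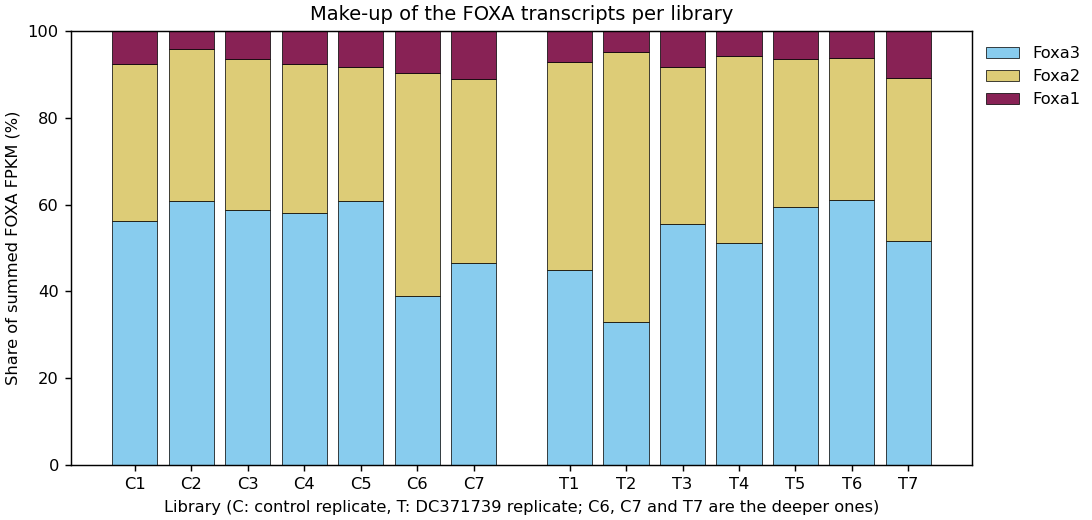
Share of Foxa1, Foxa2 and Foxa3 in their summed FPKM (vertical axis, %) in each control (C) and DC371739 (T) library. Foxa3 takes 56.2% to 60.9% in C1 to C5, while its share varies from 32.9% to 61.2% among the DC371739 libraries.

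ONECUT1 and PROX1 are the homeodomain members. Onecut1 (ENSMAUG00000017863, KB708168.1, 13144764 to 13179326, minus strand) stood at 62.3, 71.0 and 84.2 CPM in control (lowest, median and highest). With DC371739 it stood at 40.8, 77.2 and 111 CPM. Treated libraries lay on both sides of the controls: replicates 2, 4 and 6 were above the highest control, and replicates 3, 5 and 7 below the lowest. The log2 fold change was 0.05 (SE 0.18, adjusted p = 0.905), -0.03 (adjusted p = 0.927) with the class term and 0.14 (adjusted p = 0.606) over the shallower libraries, so that no direction can be given. The coefficient of variation was 12.1% in control and 33.0% in DC371739 libraries, again with no test. Prox1 (ENSMAUG00000009474, KB708265.1, 4775864 to 4816747, plus strand), known for restraining bile acid synthesis in hepatocytes, stood at 15.3, 18.5 and 26.2 CPM in control libraries. Treated libraries were at 15.7, 20.9 and 27.7 CPM. The highest controls were the deeper replicates 6 and 7, at 21.4 and 26.2 CPM, and the lowest treated library was the deeper replicate 7. All 6 shallower treated libraries, at 19.6 to 27.7 CPM, lay above all 5 shallower controls, at 15.3 to 19.3 CPM, as 4.07% of all genes did. Prox1 had a log2 fold change of 0.16 (SE 0.14, adjusted p = 0.540) over all libraries, 0.20 (adjusted p = 0.326) with the class term and 0.39 (SE 0.10, adjusted p = 0.0153) over the shallower libraries. The last call held without any 1 library (adjusted p up to 0.0476). Over all 14 libraries, leaving 1 out moved the value from 0.086 (without DC371739 replicate 6) to 0.26 (without control replicate 7). With the class term Prox1 passed once DC371739 replicate 7 was left out (adjusted p = 0.0152). PROX1 also marks lymphatic endothelium: the 2 markers of that cell type with a row, Lyve1 and Flt4, summed to 26.1 to 53.4 CPM in control and 35.0 to 51.2 CPM in DC371739 libraries, and none of them passed in any of the 3 fits. Their part in the Prox1 level was not tested.

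Creb3l3 (ENSMAUG00000020928, KB708274.1, 1136894 to 1144571, plus strand) was among the least variable of the 8, with coefficients of variation of 12.1% in control and 11.8% in DC371739 libraries. It stood at 349, 412 and 489 CPM in control libraries and at 374, 408 and 501 CPM in treated ones. The groups overlapped over nearly their whole range. Its log2 fold change was 0.03 (SE 0.10, adjusted p = 0.878), and 0.02 in both other fits.

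**Figure D5:**
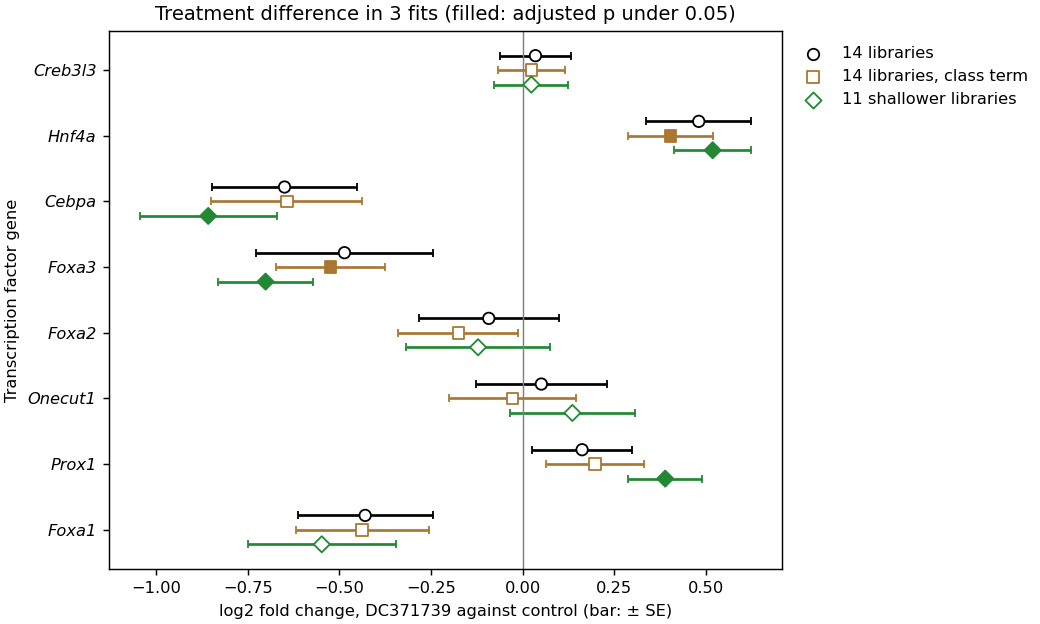
Log2 fold change of DC371739 against control (horizontal axis, bars ± SE) for each factor in 3 fits; filled symbols have an adjusted p under 0.05 over all genes. Hnf4a lies to the right and Cebpa, Foxa3 and Foxa1 to the left of 0 in all 3, and none of the symbols of the plain fit of 14 libraries is filled.

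The deeper libraries were also compared with the others. With treatment in the model and no interaction, Foxa3 was lower in them by a log2 fold change of -1.001 (SE 0.19, adjusted p = 0.000673), Foxa2 by -0.55 (SE 0.21, adjusted p = 0.0392) and Hnf4a by -0.42 (SE 0.14, adjusted p = 0.0269). The 3 are near the background, since 46.4% of all genes passed this comparison. An interaction of treatment with library class, added after the values were seen, rests on a single deeper DC371739 library. None of the 8 factors passed in edgeR (adjusted p from 0.188 to 0.963), against 0.0164% of all genes, and 5 had an unadjusted p under 0.05, against 12.5%. For Foxa3 the class difference changed with treatment by 0.91 (unadjusted p = 0.00745, adjusted p = 0.283) and for Hnf4a by -0.57 (unadjusted p = 0.0444, adjusted p = 0.390). The smallest p was that of Prox1, with a difference of -0.98 (SE 0.24, unadjusted p = 0.000697, adjusted p = 0.188).

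Covariation between factors was described by Pearson's r of log2 CPM over the 14 libraries after the means of treatment group and library class were taken out. Libraries share depth and composition, and these values are descriptions. Of 28 pairs, 7 had an r above 0.5 and 3 an r below -0.5. The highest was 0.78 for Hnf4a and Prox1, followed by 0.68 for Cebpa and Creb3l3 and 0.61 for Cebpa and Foxa1. The lowest was -0.68 for Foxa3 and Onecut1, then -0.60 for Foxa1 and Onecut1. Before the means were taken out, r was 0.04 for Foxa3 and Onecut1 and -0.41 for Foxa1 and Onecut1. The highest pairs then had 0.55, 0.39 and 0.74, in the order given. The inverse relation of Foxa3 and Onecut1 was thus seen only once group and class means were removed. Hnf4a and Cebpa, whose fold changes had opposite signs, had an r of only -0.12 once group and class were removed, against -0.54 before. Foxa2 went with Onecut1 (0.55), and both were highest in DC371739 replicate 2 and lowest in DC371739 replicate 7.

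Among 8814 sufficiently expressed genes with a symbol, the single most alike by the same measure was Twsg1 (r = 0.97) for Hnf4a, Large2 (0.94) for Cebpa, Nme6 (0.98) for Foxa1, Mcrip1 (0.86) for Foxa2, Dmac2 (0.92) for Foxa3, Arid5b (0.91) for Onecut1, Epas1 (0.94) for Prox1 and Agpat3 (0.91) for Creb3l3. The next most alike were Flot2 and Hlcs (both 0.96) for Hnf4a, Erf (0.93) and Chst13 (0.92) for Cebpa, and Tmem115 (0.97) and Tmco4 (0.87) for Foxa1. They were Lonp1 (0.86) and Aopep (0.85) for Foxa2, and Fndc4 and Agpat1 (both 0.87) for Foxa3. They were Ppargc1a and Mapk8 (both 0.91) for Onecut1, Hykk (0.94) and Tmbim6 (0.93) for Prox1, and Prkcsh (0.90) and Slc48a1 (0.88) for Creb3l3. Each value is the highest of many and is no test.

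Other liver-enriched transcription factors were read from a list of 20, of which 18 were tested. Over all 14 libraries none passed, 7 log2 fold changes were positive and 11 negative, and the median was -0.07, against -0.02 over all genes. Over the 11 shallower libraries 1 of the 18 rose (Zhx2) and 7 fell (among them Onecut2, Hhex, Nr2f6, Zbtb20, Nfib and Atf5). Of all genes, 11% rose and 10.5% fell in that fit, and the median was -0.18 for the list against 0.01. Of the 7 that fell, 4 also fell with the class term (Onecut2, Zbtb20, Nfib and Atf5), and none of the 18 rose there. Of all genes, 6.70% fell and 5.62% rose with the class term. Onecut2, the paralog of Onecut1, came nearest over all libraries: its CPM was 11.3 to 28.3 in control and 7.13 to 14.3 in DC371739 libraries (log2 fold change -0.83, SE 0.21, adjusted p = 0.0512). The 5 shallower controls held 18.3 to 28.3 CPM, above every treated library, and the deeper controls 11.3 and 11.9 CPM. Nr2f6, an orphan nuclear receptor, had a log2 fold change of -0.71 (adjusted p = 0.119).

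Coregulators that act with HNF4A had log2 fold changes of one sign in 10 of 11 genes, positive in each, with a median of 0.28 over all libraries; none passed. Over all genes tested, 46.6% were positive and the median was -0.02. Over the shallower libraries 4 of the 11 rose (Ppargc1a, Ncoa1, Ncoa3 and Crebbp), with a median of 0.39, and none fell, where 11% of all genes rose, 50.7% were positive and the median was 0.01. Ncoa1 and Ncoa3 also rose with the class term, 2 of 11 against 5.62% of all genes. Ncoa1, a steroid receptor coactivator, averaged 13.8 ± 1.72 CPM in control libraries and 19.5 ± 3.87 CPM in treated ones (log2 fold change 0.49, SE 0.14, adjusted p = 0.0662). Its 6 shallower treated libraries held 18.6 to 24.1 CPM and DC371739 replicate 7 held 11.6 CPM, within the control range of 10.7 to 15.4 CPM. Ncoa3 had 0.44 (adjusted p = 0.115). The HNF4A corepressor Nr0b2 (SHP) had a log2 fold change of -0.13 (adjusted p = 0.665).

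Of 18 tested hepatocyte identity genes that HNF4A and its partners activate, none passed over all libraries or with the class term, and the median log2 fold change was -0.04. Apob and Slc2a2, 2 of the 18, rose over the shallower libraries, which is near the 11% of all genes that rose there. Tat, the tyrosine aminotransferase, had 0.44 (adjusted p = 0.140), Apoa2 -0.38 (adjusted p = 0.160) and Alb -0.10 (SE 0.09, adjusted p = 0.584). Of 10 metabolic C/EBP targets, none passed in either fit of all 14 libraries. Pck1 and G6pc, enzymes of gluconeogenesis, rose when the deeper libraries were left out, 2 of 10 against 11% of all genes. Both passed narrowly there (adjusted p = 0.0499 for Pck1 and 0.0471 for G6pc by edgeR). Pck1 had a log2 fold change of 1.22 (adjusted p = 0.0963) over all libraries, and G6pc of 0.87 (adjusted p = 0.115). The medians of this list were 0.04 over all libraries and 0.12 over the shallower ones.

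Of 10 tested acute phase genes with C/EBP sites, 9 had positive log2 fold changes, against 46.6% of all genes, and none passed over all libraries. Their median was 0.27, against -0.02 over all genes. The class term added Saa3, which rose, 1 of 10 against 5.62% of all genes. The fit of 11 libraries called Il1rn, C3 and Il6ra higher, 3 of 10 against 11%. Saa3, an acute phase serum amyloid A, ranged from 9.45 to 164 CPM in control and from 30.0 to 412 CPM in treated libraries (log2 fold change 1.95, SE 0.57, adjusted p = 0.0756). Its 4 highest libraries, at 226 to 412 CPM, were DC371739 replicates 2, 3, 5 and 6, which also held the 4 lowest Cebpa values. That overlap was seen after the values were known. Control replicate 5 went the other way, with the highest control Saa3 value (164 CPM) and the highest Cebpa value of all libraries (63.4 CPM). DC371739 replicate 4 had the lowest treated Saa3 value (30.0 CPM) and 36.1 CPM of Cebpa. The relation of the 2 genes was not tested. C3, the central complement component, had 0.61 (adjusted p = 0.0996). Acute phase genes are also induced through C/EBP beta and STAT3, and Cebpb was not analysed here.

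For the lists that follow, 1.24% of all genes rose and 0.608% fell over all libraries, with a median of -0.02. With the class term these shares were 5.62% and 6.70%, and without the deeper libraries 11% and 10.5%. FOXA targets numbered 9 tested, with a median of 0.44 and no call over all libraries. Of these, 1 rose with the class term (Hnf4a itself), and 4 of 8 did without the deeper libraries (Hnf4a, Pck1, G6pc and Apob). Among the 4, Pck1 and G6pc passed only narrowly (adjusted p = 0.0499 and 0.0471 by edgeR), and Hnf4a is itself a member. Of 8 ONECUT1 targets, 1 fell over all libraries and none rose (median -0.11). The fit with the class term had 1 that rose (Hnf4a) and 1 that fell. Without the deeper libraries, Hnf4a and Pck1 rose and 2 members fell. None of 10 CREB3L3 targets passed over all libraries or with the class term (median 0.10), with Pck1 and G6pc rising over the shallower ones; Fgf21, a fasting hormone, had -0.11 (adjusted p = 0.749) and Apoa4 0.19 (adjusted p = 0.618). In the CREB3 and ATF6 family with its site proteases, 6 genes were tested and none passed over all libraries (median 0.04). Creb3l1 was low, at means of 3.01 CPM in control and 2.06 CPM in DC371739 libraries. It had -0.54 (adjusted p = 0.302) and fell with the class term (-0.71, adjusted p = 0.0215). It also fell among the 11 shallower libraries, where Atf6 and Mbtps2 rose. Creb3 had -0.14 (adjusted p = 0.357). Several targets stand in more than 1 list, so their calls are not separate. Pck1 is in the lists of metabolic C/EBP, FOXA, ONECUT1 and CREB3L3 targets. G6pc is in the same lists except that of ONECUT1, and Hnf4a is in those of FOXA and ONECUT1.

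In bulk liver, fewer cells of a type and less RNA per cell cannot be told apart. Of 9 hepatocyte markers none passed over all libraries or with the class term, the median was -0.05, and Apob was the 1 that rose over the shallower libraries. Of 13 macrophage markers 3 rose over all libraries (Laptm5, Ctss and Mpeg1), 7 with the class term and 6 without the deeper libraries. None was called lower in these fits, but 4 of the 13 log2 fold changes were negative over all libraries (Cd163, C1qa, C1qb and C1qc). Their summed level was 701 to 1060 CPM in control and 792 to 1241 CPM in treated libraries. Sums in control and treated libraries were 184 to 290 and 233 to 315 CPM for 9 endothelial markers, 229 to 337 and 293 to 471 CPM for 9 stellate and fibroblast markers, 23.0 to 39.5 and 27.8 to 50.1 CPM for 6 cholangiocyte markers, and 9.16 to 16.8 and 13.5 to 28.0 CPM for 6 lymphocyte markers. None of these passed over all libraries. With the class term 2 endothelial (Pecam1 and Cdh5) and 2 lymphocyte markers (Prf1 and Ptprc) rose, and over the shallower ones 4 endothelial, 1 stellate and 2 lymphocyte markers rose and 1 cholangiocyte marker fell. The 1 erythroid marker with a row, Alas2, held 7.20 to 32.6 and 7.66 to 28.1 CPM, and pancreas markers had no matched row. No marker with a row was at 0 in every library. The part of these cell types in the levels of the factors was not tested.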

How the data were processed

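Liver RNA of 7 control and 7 DC371739 samples was sequenced. The tools named in the submitters' processing notes are HISAT2 2.2.1, featureCounts 2.0.0 and edgeR; their settings, the strand mode and the genome build were not given in the sources. The authors deposited whole-number counts per Ensembl gene (22283 genes) with the summed exon length. The deposited FPKM values cover 10023 genes with a symbol and equal the count per length and per library constant (largest relative deviation 1.3e-07). The authors' log2 fold changes, log2 CPM, p-values and adjusted p-values stand in the same deposited table. Symbols came from it.

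The test was that of edgeR 4.0.16 under R 4.3.3 (quasi-likelihood F-test, robust, TMM, minimum count of 10, treatment alone in the model), leaving 12166 genes. Benjamini-Hochberg adjustment ran over all of them, and the threshold was 0.05. Standard errors came from the log2 fold change and the square root of F. Log2 CPM used a prior count of 2. In a simulation of the comparison of 14 libraries (12166 genes), 32 of 67 genes changed 1.5-fold were recovered and 59 of 66 changed 2-fold.

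The members and gene lists were chosen with earlier results of these data known. Text names all members and, per list, up to 4 called genes or else the 2 of smallest p. For likeness it names the genes of highest r. Further genes were named after their values were seen, where few passed in a fit. Some genes of the lists are not reported here. Alternatives were RLE, upper-quartile or no scaling, no filter or 1 CPM in 7 libraries, DESeq2 1.42.0, limma 3.58.1 (voom with quality weights, or log2 of FPKM + 1 or + 0.1 with a mean of at least 1), a replicate block, a class term, the 11 shallower libraries and each library left out. The interaction, leaving libraries out of the class fits, and the ratio of Hnf4a to Cebpa were added after seeing the data. No 2 libraries of a group agreed within sampling noise (in 42 pairs, chi-square was at least 11.2 times its degrees of freedom).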

Additional observations from a re-analysis of the deposited data

How the results depend on the processing

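The 225 genes called over all 14 libraries became 848 with DESeq2, 2739 with limma-voom with sample quality weights, 1499 with the library class term, 2635 over the 11 shallower libraries and 8 with the replicate block, and 25 to 1069 with 1 library left out. The 0 factors called became 2, 5, 2 and 4 in the first 4 of these, stayed at 0 with the block, and were 0 to 2 with 1 library left out. The other 7 settings called none of the 8. Hnf4a and Prox1 kept a positive and Cebpa, Foxa1, Foxa2 and Foxa3 a negative log2 fold change in all 12 settings and with each library left out. Onecut1 changed sign with limma on log2(FPKM + 1) (-0.0068) and log2(FPKM + 0.1) (-0.011), the replicate block (-0.011) and the class term (-0.029), and without DC371739 replicate 2 (-0.076) or 4 (-0.00094); its range with 1 library left out was -0.076 to 0.152. Creb3l3 changed sign without DC371739 replicate 4 (-0.012), in a range of -0.012 to 0.080. The cause was not tested. The difference in the log2 ratio of Foxa3 to Foxa2 was -0.39 to -0.03 with 1 library left out and -0.53 over the shallower libraries. Same-numbered libraries of the 2 groups deviated together (r above 0.1) in 2 of 7 pairs, so the numbers were not taken as pairs. These were replicate 7 (0.55), with both libraries of the deeper class, and replicate 3 (0.12). Foxa1 had the fewest counts of the 8, at 49 to 140 a library, and the part of counting error in its spread was not tested.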
